A study of Mus musculus with 29 samples.

Results

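The MHC class II genes described here are Cd74, H2-Aa, H2-Ab1, H2-Eb1 and Ciita. They were taken as the rows whose Ensembl identifier maps to one of these symbols, and the 5 were found in both deposited count tables, among 38924 genes in LSK cells and 18194 genes in niche cells. The study compared mouse cells from hosts whose bone marrow niche was haploinsufficient for Wnt5a, that is with a reduced dose of this secreted WNT ligand (labelled Wnt5a), with cells from WT hosts. LSK cells, the bone marrow fraction that lacks lineage markers, carries Sca-1 and Kit and holds the blood stem cells, were sorted after transplantation, in 5 libraries labelled Wnt5a and 6 labelled WT. The niche itself was sorted into an endothelial (EC), an osteoblastic (OBC) and a mesenchymal (MSC) population, with 3 Wnt5a and 3 WT libraries each. All 29 libraries carry the strain label 129Ly5.1. The genotype label is that of the niche. How many animals or cells entered a library, the animals' age, the kind of Wnt5a allele and the time after transplantation are not stated in the labels, so p-values measure the spread between these libraries.

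MHC class II molecules are heterodimers of an alpha and a beta chain that present peptides from endosomes to CD4+ T cells. In the mouse, H2-Aa and H2-Ab1 encode the alpha and beta chains of the I-A molecule, and H2-Eb1 encodes the beta chain of the I-E molecule. Cd74 encodes the invariant chain, which occupies the peptide groove during assembly, and Ciita encodes the transactivator that switches the class II promoters on. Expression is highest in B cells, dendritic cells and activated macrophages, and interferon gamma can induce it in many other cells.

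On GRCm38 the 3 chain genes lie next to each other on chromosome 17. H2-Ab1 (ENSMUSG00000073421) spans chr17:34257689-34269419 on the plus strand, H2-Aa (ENSMUSG00000036594) spans chr17:34282744-34287823 on the minus strand, and H2-Eb1 (ENSMUSG00000060586) spans chr17:34305867-34316674 on the plus strand. The gaps between neighbours are 13324 bases and 18043 bases. The antisense gene Gm20513 overlaps H2-Eb1. Whether counting used strand is not stated, so the overlap with that gene may have raised or lowered the values of H2-Eb1.

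Class II promoters are known for an X box, bound by the RFX complex (Rfx5, Rfxap and Rfxank) and by CREB, and a downstream Y box, bound by NF-Y. CIITA docks on these factors rather than on DNA. Windows from 250 bases before to 50 bases after the start are printed from RefSeq (GRCm38.p6) because they show these boxes in an alpha chain and a beta chain gene, the neighbours H2-Aa and H2-Eb1. H2-Aa is at chr17:34287774-34288073 (minus strand) and H2-Eb1 at chr17:34305617-34305916 (plus strand). Capitals mark matches to the Y box CCAAT on either strand (reading ATTGG on the minus strand) and, in H2-Eb1, to the X1 box GNAACNGAT, or, in H2-Aa, to its core GCAAC.
H2-Aa: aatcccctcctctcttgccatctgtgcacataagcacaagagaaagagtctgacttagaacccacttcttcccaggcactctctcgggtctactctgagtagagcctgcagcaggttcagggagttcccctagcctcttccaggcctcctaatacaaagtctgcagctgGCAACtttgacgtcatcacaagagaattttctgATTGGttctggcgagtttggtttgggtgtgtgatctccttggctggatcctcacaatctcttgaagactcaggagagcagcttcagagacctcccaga
H2-Eb1: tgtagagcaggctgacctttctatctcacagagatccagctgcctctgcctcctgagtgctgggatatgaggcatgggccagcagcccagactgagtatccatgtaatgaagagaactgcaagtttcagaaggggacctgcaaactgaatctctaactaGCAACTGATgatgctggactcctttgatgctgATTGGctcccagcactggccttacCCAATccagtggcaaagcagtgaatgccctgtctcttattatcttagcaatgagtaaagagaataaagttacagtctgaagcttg

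The X1 box occurred in the H2-Eb1 window only, from -91 to -83 relative to the start, and in 2.06% of 32544 promoter windows searched on both strands. The Y box occurred in both windows and in 37.4% of all windows. In H2-Aa the core GCAAC began at -81 and the ATTGG match at -48, a distance of 33 bases, and in H2-Eb1 they began at -91 and -59, a distance of 32 bases. H2-Aa also held TGACGTCA, the cyclic AMP response element, from -74 to -67 with no overlap with the other matches, a motif of 1.8% of windows. The core GCAAC, held by 35.1% of windows and contained in the X1 box match of H2-Eb1, and TGACGTCA were chosen after the sequences had been seen. These matches are descriptions of the letters and not evidence of binding.

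**Figure D1:**
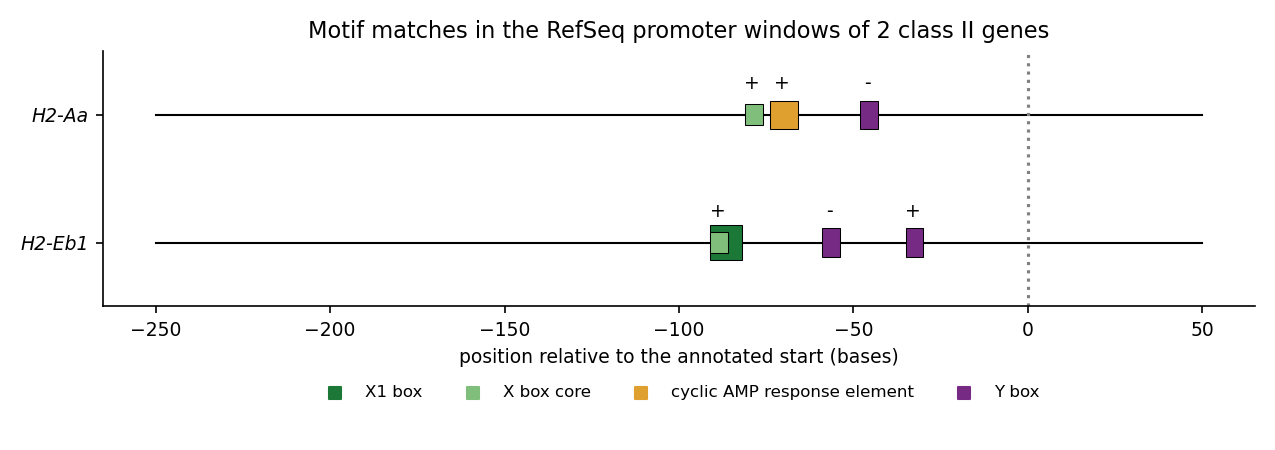
Motif matches in the RefSeq promoter windows of H2-Aa and H2-Eb1, with the position relative to the annotated start in bases on the x axis and the strand of each match above it (the X1 box of H2-Eb1 is on the plus strand). In both windows an X box core match lies upstream of a minus-strand Y box match, 33 bases apart in H2-Aa and 32 bases apart in H2-Eb1.

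Read totals of the LSK libraries ran from 1254553 to 5775459, and UMI totals of the niche libraries ran from 10635 to 117989. A UMI (unique molecular identifier) marks 1 captured molecule, whereas the LSK values are reads of amplified cDNA, so levels are not compared between the tables. All 9 LSK marker genes, Kit, Flt3 and Cd34 among them, were detected in all 11 LSK libraries. Endothelial marker genes summed to 15021 to 21508 CPM (counts scaled by TMM library totals to a common size) in EC libraries and 4051 to 9239 CPM in OBC libraries, but reached 9791 to 19110 CPM in MSC libraries. Osteoblast genes summed to 3291 to 28930 CPM in OBC libraries and at most 2236 CPM in the others. Among LSK libraries, Wnt5a replicate 5 stood apart in immunoglobulin transcripts, with 8.28% of reads, against 0.264% to 0.972% in the other Wnt5a libraries and 0.262% to 2.12% in the WT libraries. One EC library, WT replicate 14, carried 445180 CPM of erythroid genes. Wnt5a itself had 0 to 5 reads in Wnt5a and 0 or 1 read in WT LSK libraries, which do not check a genotype label that is the niche's.

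Class II transcripts were present in the LSK libraries. Cd74 (ENSMUSG00000024610, chr18:60803848-60812652, plus strand) had the highest level for its length. Per kilobase of exon, the order of mean levels was Cd74, H2-Aa, H2-Eb1, H2-Ab1 and Ciita in both groups. The order rests on the exon lengths used, 1679 bases for Cd74 and 3798 bases for H2-Aa. Without division by length H2-Aa had the higher mean. H2-Aa and Cd74 averaged 207 and 133 CPM in Wnt5a libraries, and 302 and 207 CPM in WT libraries. Cd74 averaged 79.2 ± 59.1 CPM per kb in Wnt5a and 123 ± 40.3 CPM per kb in WT libraries (SD, n = 5 and 6). H2-Aa averaged 54.5 ± 22.1 CPM per kb in Wnt5a and 79.6 ± 24.6 CPM per kb in WT libraries. Cd74 was above H2-Aa per kb in 3 of 5 Wnt5a and 4 of 6 WT libraries, so their order was not stable from library to library.

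The 2 beta chain genes came next at similar levels per length. H2-Eb1 averaged 33.1 ± 13.3 CPM per kb in Wnt5a and 28.7 ± 9.23 CPM per kb in WT libraries. H2-Ab1 averaged 23.4 ± 4.59 CPM per kb in Wnt5a and 26.3 ± 6.34 CPM per kb in WT libraries. Per kb, H2-Eb1 was the higher of the pair in 4 of 5 Wnt5a and 4 of 6 WT libraries, a difference within their spread. In mean CPM, H2-Ab1 was above H2-Eb1 in WT libraries (67.6 and 55.7 CPM) but not in Wnt5a libraries. H2-Aa was above H2-Eb1 per kb in 4 of 5 Wnt5a and all 6 WT libraries, the exception being Wnt5a replicate 1.

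Ciita (ENSMUSG00000022504, chr16:10480059-10528418, plus strand), the transactivator, was the lowest member by far, in a locus overlapped by the antisense gene Dexi. It had 2, 4, 3, 0 and 8 reads in Wnt5a replicates 1 to 5, and 1 to 22 reads with a median of 1.98 CPM in WT libraries. The CPM ranges were 0 to 3.53 in Wnt5a and 0.419 to 4.57 in WT libraries and overlapped. With 3 counts taken as the floor of a library, equal to 0.519 to 2.39 CPM over the 11 libraries, Ciita lay at or below the floor in 3 Wnt5a and 3 WT libraries. It did not pass the filter on low counts and was not tested over all 11 libraries. With no filter it was at -0.66 ± 1.03 on the log2 scale (SE, Wnt5a over WT, edgeR adjusted p = 0.711).

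**Figure D2:**
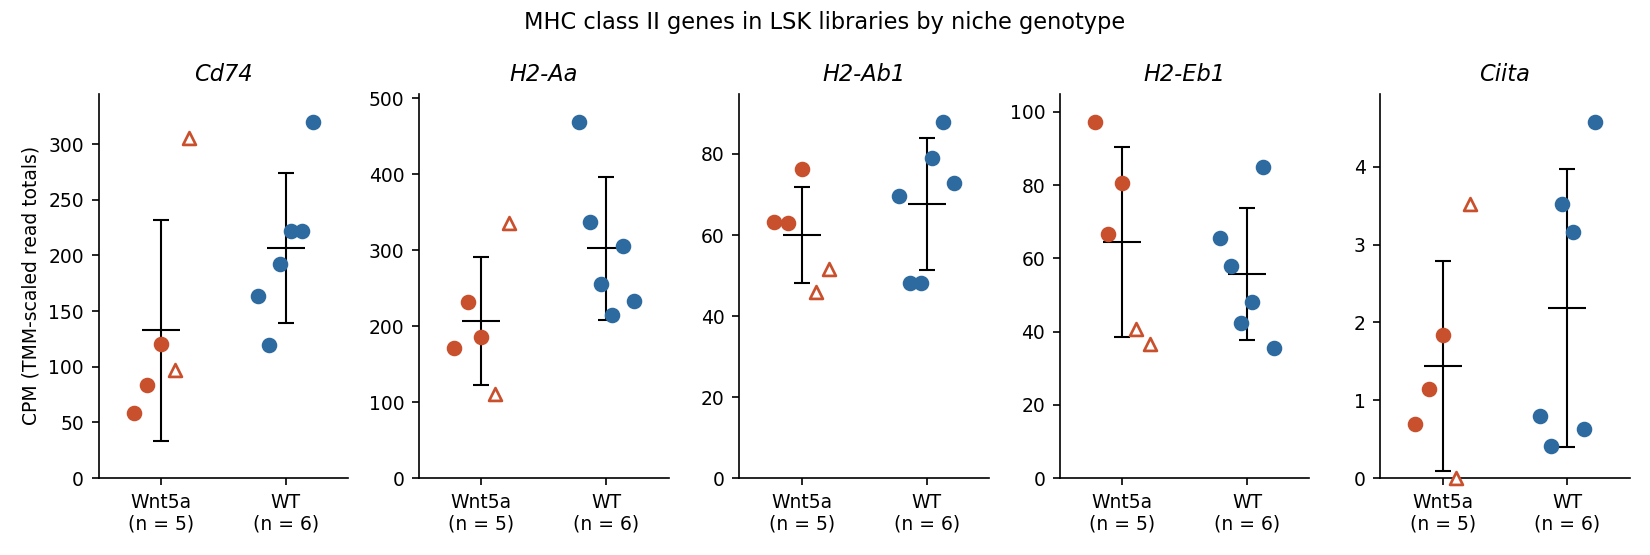
CPM on TMM-scaled read totals (y axis, from 0, a scale per gene) of the 5 class II genes in each LSK library, Wnt5a niche left and WT niche right. Bars are mean and SD, filled circles are libraries with 4-digit label numbers and open triangles those with 3-digit numbers. Cd74 in the upper triangle, Wnt5a replicate 5, stands at 306 CPM, above the other 4 Wnt5a libraries at 58.3 to 120 CPM.

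The first question was whether LSK cells regenerated in a Wnt5a-haploinsufficient niche carried different class II levels. Over all 11 libraries none of the 4 members tested passed edgeR's quasi-likelihood test at an adjusted p of 0.05, where 3 of 13098 genes were called, or 0.0229%. Below an unadjusted p of 0.05 lay 0 of 4 members and 18.4% of all genes. DESeq2 called 0 of 4 members and 5.01% of all genes, with 1 of 4 and 20.7% below an unadjusted 0.05. Limma voom called 0 of 4 and no gene at all (0.0%), with 1 of 4 and 21.9% below an unadjusted 0.05. With sample quality weights, a setting added after the data had been seen, limma voom called 0 of 4 and 0.687% of all genes, with 2 of 4 and 21.6% below an unadjusted 0.05. The median log2 fold change (Wnt5a over WT) of the 4 members was -0.36, beside 0.02 for all genes tested.

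Cd74 had 58.3, 83.3, 120, 97.3 and 306 CPM in Wnt5a replicates 1 to 5. In WT libraries it ran from 120 to 320 CPM with a median of 207 CPM. Wnt5a replicates 1, 2 and 4 lay below every WT library, Wnt5a replicate 3 lay just above the lowest WT library, and Wnt5a replicate 5 lay among the highest, so the groups overlapped. Wnt5a over WT, this was -0.64 ± 0.36 on the log2 scale (SE, edgeR adjusted p = 0.357).

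H2-Aa, the alpha chain gene, had 171, 231, 186, 111 and 335 CPM in Wnt5a replicates 1 to 5. In WT libraries it ran from 214 to 469 CPM with a median of 280 CPM. Again 3 of 5 Wnt5a libraries lay below all WT libraries and Wnt5a replicate 5 was the highest of its group. The log2 fold change was -0.54 ± 0.26 (SE, edgeR adjusted p = 0.275, unadjusted p = 0.0524).

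H2-Ab1 encodes the beta chain that pairs with the product of H2-Aa. It had 63.1, 63.0, 76.4, 46.0 and 51.6 CPM in Wnt5a libraries and 48.2 to 87.9 CPM in WT libraries, with a WT median of 71.2 CPM. The ranges largely coincided, at -0.17 ± 0.24 on the log2 scale (SE, edgeR adjusted p = 0.738). H2-Eb1 had 97.3, 66.7, 80.7, 40.7 and 36.6 CPM in Wnt5a libraries and 35.5 to 85.1 CPM in WT libraries, with a WT median of 52.9 CPM. The 3 Wnt5a libraries with 4-digit labels held the higher values of their group, and the log2 fold change over all libraries was 0.22 ± 0.30 (SE, edgeR adjusted p = 0.739).

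Label numbers split the LSK libraries. All 6 WT and 3 Wnt5a libraries have 4-digit numbers, and Wnt5a replicates 4 and 5 have the 3-digit numbers 611 and 641 with no WT partner in that series. What the numbers stand for is not given in the labels. Within the 4-digit series 1 of 4 members fell, against a background of 882 of 13910 genes called (6.34%). Cd74 was at -1.26 ± 0.30 on the log2 scale (SE), a 2.40-fold lower level in Wnt5a libraries, with an edgeR adjusted p of 0.0265. H2-Aa was at -0.63 ± 0.24 (SE, adjusted p = 0.111), H2-Ab1 at -0.01 ± 0.26 (adjusted p = 0.981) and H2-Eb1 at 0.54 ± 0.28 (adjusted p = 0.231).

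The Cd74 call turned on single libraries. Without Wnt5a replicate 5 it passed, at -1.21 ± 0.27 (SE, edgeR adjusted p = 0.0155), where 8.32% of all genes were called. Within the 4-digit series it no longer passed without Wnt5a replicate 1 (-1.03, adjusted p = 0.107) or without Wnt5a replicate 3 (-1.56, adjusted p = 0.0505), and it kept an adjusted p of 0.0165 to 0.0499 without any other library. Ciita passed the filter in that series when Wnt5a replicate 1, 2 or 3 was left out, at -0.64, -0.91 and -1.27 (adjusted p = 0.775, 0.650 and 0.551). These leave-one-out fits of the 4-digit series, and the fit of its 5 lowest numbers described next, were chosen after the data had been seen.

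Within the 4-digit series the numbers were not balanced between genotypes. The 3 Wnt5a libraries are 8471, 8491 and 8541, while 4 of the 6 WT libraries have the highest numbers, 8551 to 8581. Cd74 ran from 192 to 320 CPM in those 4 WT libraries and from 58.3 to 164 CPM in the 5 others. Going up the numbers 8471, 8481, 8491, 8531, 8541, 8551, 8561, 8571 and 8581, Cd74 stood at 58.3, 164, 83.3, 120, 120, 192, 222, 222 and 320 CPM, with 8481 and 8531 being the WT libraries among the first 5. Among these 5, Cd74 rose with the number in the Wnt5a libraries 8471, 8491 and 8541, at 58.3, 83.3 and 120 CPM. It fell from 164 to 120 CPM between the WT libraries 8481 and 8531. H2-Aa stood at 171, 469, 231, 338, 186, 255, 214, 305 and 233 CPM in the same order.

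The ratio of Cd74 to H2-Aa reads, in which library scaling cancels, was chosen after the values had been seen and is given as a description. It was 0.341, 0.350, 0.360 and 0.355 in libraries 8471 (Wnt5a), 8481 (WT), 8491 (Wnt5a) and 8531 (WT). It was 0.648 in 8541 (Wnt5a), and 0.752, 1.03, 0.728 and 1.37 in the WT libraries 8551, 8561, 8571 and 8581. In the 3-digit Wnt5a libraries 611 and 641 it was 0.878 and 0.912. In the 4 lowest numbers the levels of both genes stood lower in Wnt5a libraries (58.3 and 83.3 CPM of Cd74, 171 and 231 CPM of H2-Aa) than in WT libraries (164 and 120 CPM of Cd74, 469 and 338 CPM of H2-Aa), so the near equal ratio there does not speak to the level of Cd74.

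**Figure D3:**
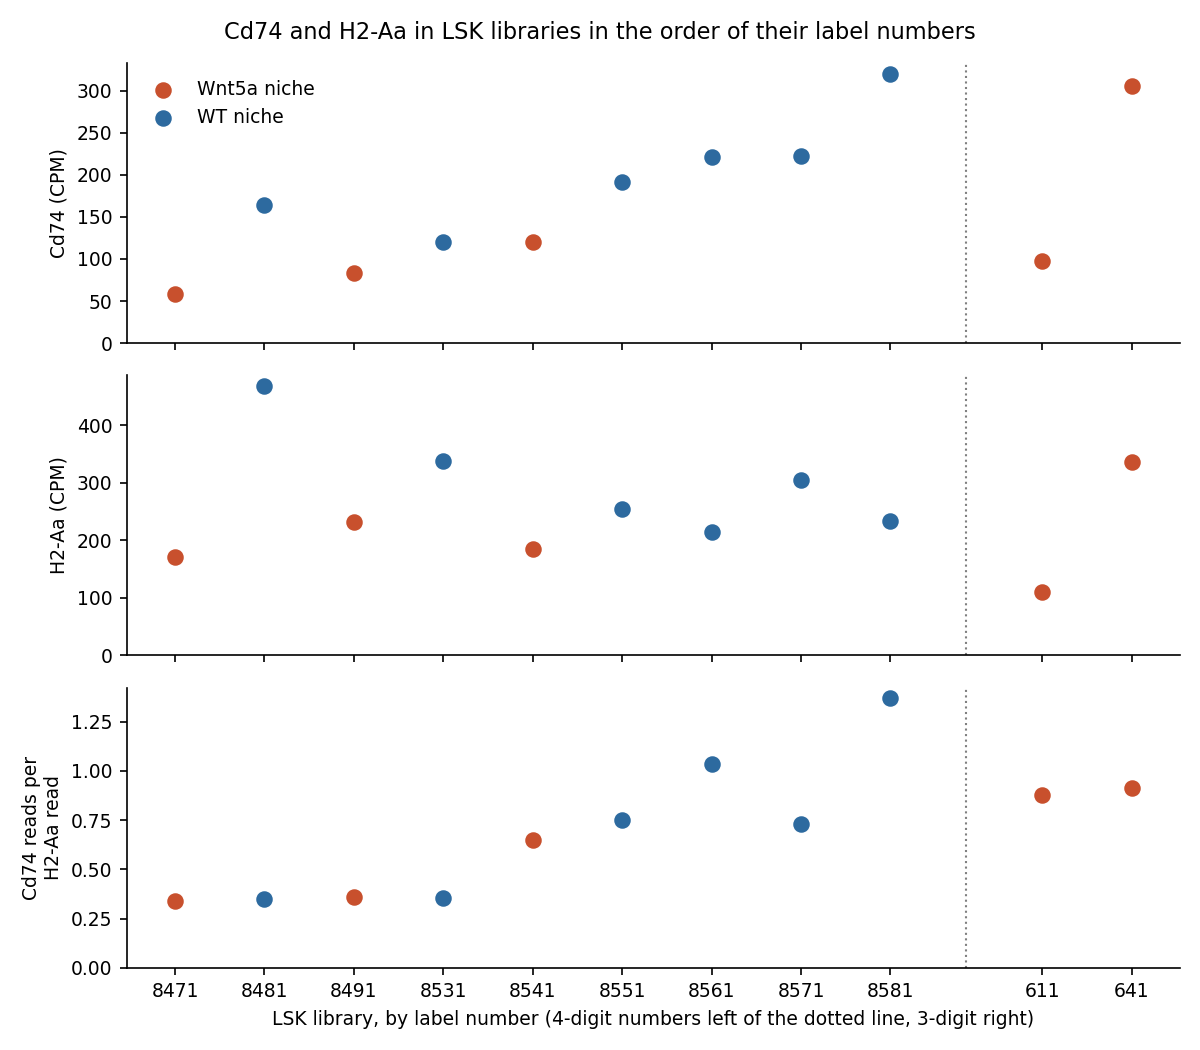
Cd74 and H2-Aa in CPM and Cd74 reads per H2-Aa read (y axes, from 0) for each of the 11 LSK libraries, placed on the x axis by label number, with 3-digit numbers right of the dotted line. The read ratio is 0.341 to 0.360 in the 4 lowest 4-digit numbers, which hold both genotypes, and 0.648 to 1.37 in the others.

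In the 5 lowest 4-digit numbers (3 Wnt5a and 2 WT libraries), where genotypes alternate, no member passed the test, with 26 of 13100 genes called (0.198%). Below an unadjusted p of 0.05 lay 1 of 4 members, beside 10.8% of all genes. There H2-Aa had the lower value of the pair, at -1.05 ± 0.24 (SE, edgeR adjusted p = 0.266), and Cd74 was at -0.71 ± 0.33 (SE, edgeR adjusted p = 0.471). H2-Ab1 was at 0.19 ± 0.33 (adjusted p = 0.866) and H2-Eb1 at 0.39 ± 0.31 (adjusted p = 0.665). Label order and genotype cannot be fully told apart for Cd74 in the 4-digit series.

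Reads of the chain genes of 1 heterodimer did not keep a fixed proportion. H2-Aa had 2.70, 3.67, 2.43, 2.41 and 6.50 reads per H2-Ab1 read in Wnt5a replicates 1 to 5, and 6.74, 7.01, 5.30, 2.72, 3.47 and 3.20 in WT replicates 1 to 6. The ratio lay below 4 in 4 of 5 Wnt5a and 3 of 6 WT libraries, so the groups overlapped. In WT libraries it was 5.30 to 7.01 in numbers 8481, 8531 and 8551, and 2.72 to 3.47 in 8561, 8571 and 8581. In the Wnt5a libraries 8471, 8491 and 8541 it was 2.70, 3.67 and 2.43. The part of label order in this ratio was not tested. As a description over 11 libraries, with depth and library shared by all genes, the log2 CPM of H2-Aa had a Pearson r of 0.15 with H2-Ab1. Over the 10 pairs of members r ran from -0.60 (Cd74 with H2-Eb1) to 0.68 (Cd74 with Ciita), and it was 0.47 both for H2-Aa with Cd74 and for H2-Ab1 with H2-Eb1.

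Marker genes of B cells, which are rich in class II, and separately of plasma cells were summed in the same libraries. The 14 B cell genes in the table summed to 481, 534, 619, 348 and 1690 CPM in Wnt5a replicates 1 to 5, with 9 to 13 detected, and to 630 to 2552 CPM with a median of 1124 CPM in WT libraries, with 9 to 12 detected. The most abundant, Ighm, averaged 522 CPM in Wnt5a and 1177 CPM in WT libraries. Ighm thus made up most of the mean B cell sum, which was 734 CPM in Wnt5a and 1390 CPM in WT libraries. The B cell sum was highest in Wnt5a replicate 5 within the Wnt5a group and in WT replicate 6 within the WT group. Wnt5a replicate 5, the library with the most immunoglobulin reads, had 9 of the 14 genes detected, the fewest of its group. WT replicate 6 had 11 detected. Cd74 was highest in the same libraries, and so was Ciita, at 3.53 and 4.57 CPM. H2-Eb1 was the lowest of its group in both, at 36.6 and 35.5 CPM. H2-Aa was highest in Wnt5a replicate 5, at 335 CPM, but not in WT replicate 6, at 233 CPM. H2-Ab1 was highest in neither, at 51.6 and 72.8 CPM. Plasma cell genes summed to 2619 to 45358 CPM in Wnt5a libraries, the top value being replicate 5, and to 1428 to 9447 CPM in WT libraries, led by Jchain. The part of B lineage transcripts in the Cd74 values was not tested, and in bulk libraries fewer cells of a type and less RNA per cell cannot be told apart.

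The other marker lists were summed in the same way. Dendritic cell genes summed to 745 to 915 CPM in Wnt5a and 563 to 842 CPM in WT libraries, led by Cst3, with 7 to 9 and 6 to 10 of 10 genes detected. Macrophage and monocyte genes summed to 355 to 623 CPM in Wnt5a and 355 to 1018 CPM in WT libraries, led by Lyz2. No listed gene of these 2 lists, or of the B and plasma cell lists, was at 0 throughout a group. Among the rest, neutrophil genes led by Mpo reached 261 to 525 CPM in Wnt5a and 194 to 296 CPM in WT libraries, and T and NK cell genes led by Nkg7 reached 208 to 514 CPM in Wnt5a and 254 to 404 CPM in WT libraries. Erythroid genes led by Car2 reached 743 to 2095 CPM in Wnt5a and 941 to 1303 CPM in WT libraries.

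Partners of the class II chains act in peptide loading. H2-DM (H2-DMa with H2-DMb1 or H2-DMb2) removes the invariant chain remnant from the groove, and H2-O (H2-Oa with H2-Ob) restrains H2-DM. Of 7 partner genes counted in LSK cells, 5 were tested and none passed over all 11 libraries, with 3 of 5 below an unadjusted p of 0.05 (18.4% of all genes). DESeq2 called 2 of 5, beside 5.01% of all genes, and limma voom called 0 of 5, also with quality weights. Their median log2 fold change was -0.64, beside 0.02 for all genes.

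H2-DMb2 had 4.14, 7.73, 0.611, 6.79 and 10.1 CPM in Wnt5a libraries, against 20.003 to 53.0 CPM with a median of 27.5 CPM in WT libraries. All 5 Wnt5a values lay below all WT values, a separation in that direction shown by 1.55% of the genes tested. The log2 fold change was -2.36 ± 0.50 (SE, edgeR adjusted p = 0.0564), and in the 4-digit series H2-DMb2 fell by 2.79 on the log2 scale (± 0.57 SE, adjusted p = 0.0162). That call was lost without Wnt5a replicate 1 (adjusted p = 0.0596) or replicate 3 (adjusted p = 0.0571). H2-DMb2 and H2-DMb1 are near-identical copies between which the authors' counting could split reads. H2-DMb1 averaged 32.7 ± 13.2 CPM in Wnt5a and 50.7 ± 15.5 CPM in WT libraries (log2 fold change -0.64 ± 0.30 SE, adjusted p = 0.271).

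H2-Oa was also apart between the groups, a separation in that direction shown by 1.55% of the genes tested. It had 11.7, 17.2, 18.9, 8.30 and 21.2 CPM in Wnt5a libraries and 22.5 to 68.5 CPM, median 38.7 CPM, in WT libraries. Its log2 fold change was -1.41 ± 0.39 (SE, edgeR adjusted p = 0.0977), and it did not pass in the 4-digit series either (-1.39, adjusted p = 0.0705). In the 5 lowest label numbers it was at -0.56 (adjusted p = 0.724). The alpha chain H2-DMa and the beta chain H2-Ob did not share the lower values, at 0.06 ± 0.21 (adjusted p = 0.905) and 0.30 ± 0.26 (adjusted p = 0.553). H2-Ea-ps, the locus of the alpha chain that pairs with H2-Eb1 and a polymorphic pseudogene in the annotation, had 0 reads in all 11 LSK libraries. H2-Eb2 was not tested over all libraries. It had 2, 1, 0, 0 and 6 reads in Wnt5a replicates 1 to 5, and its WT reads, 24 in all, came from WT replicate 2 alone.

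**Figure D4:**
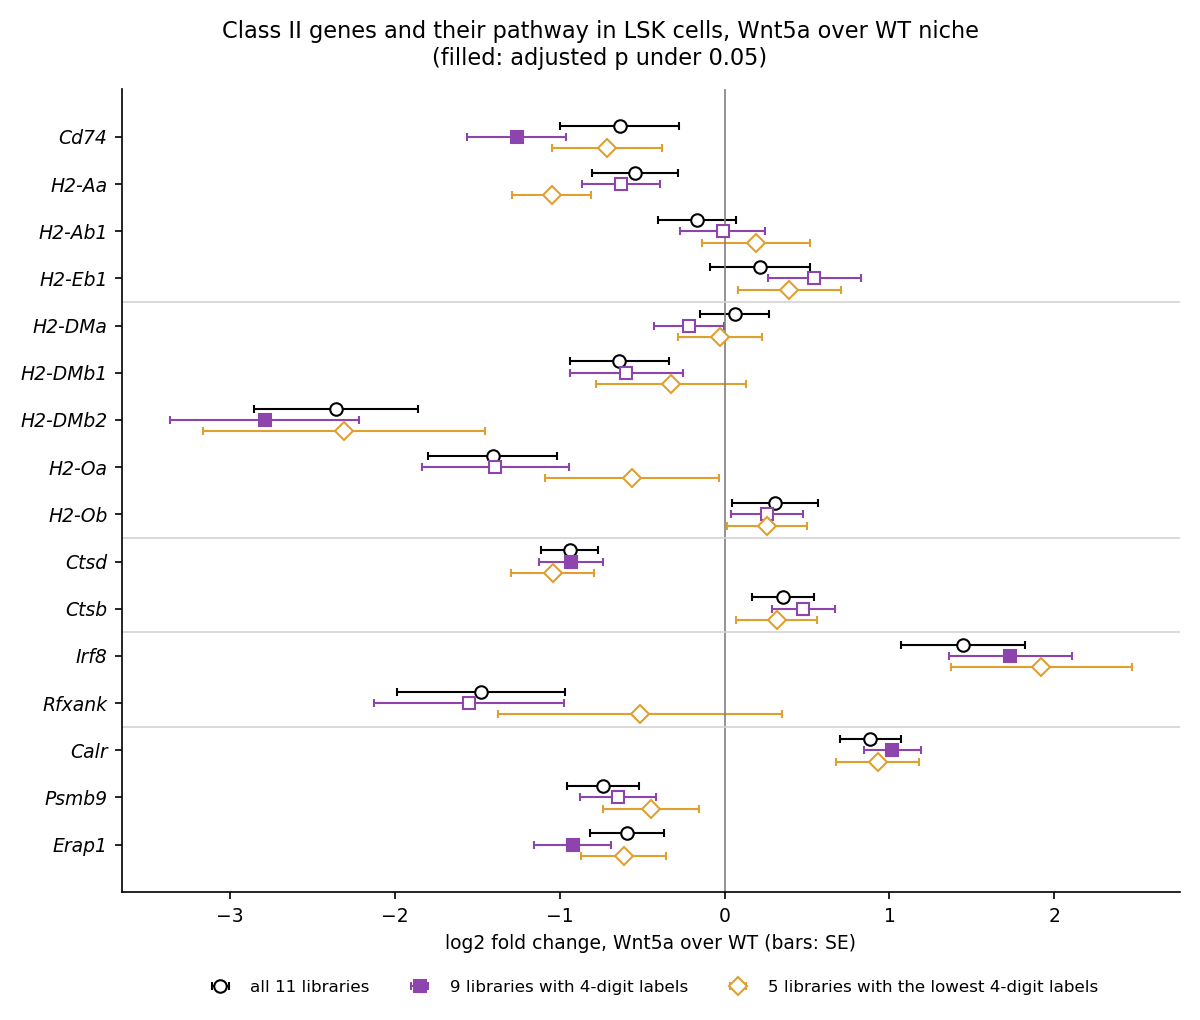
Log2 fold change of Wnt5a over WT (x axis, bars are SE) for the class II members, their partners and the named pathway genes in LSK cells, over all 11 libraries, the 9 with 4-digit labels and the 5 with the lowest 4-digit labels. Filled symbols have an edgeR adjusted p under 0.05. Cd74 is filled at -1.26 in the 9 libraries only, and H2-DMb2 lies furthest left in each fit.

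Proteases and regulators of class II processing showed 1 gene with separated groups. Ctsd encodes cathepsin D, an aspartic protease of lysosomes and endosomes. It had 85.2, 70.1, 93.5, 90.5 and 70.5 CPM in Wnt5a libraries, against 130 to 177 CPM with a median of 162 CPM in WT libraries, with no overlap. Such a separation in that direction was shown by 1.55% of the genes tested. The log2 fold change was -0.94 ± 0.17 (SE, edgeR adjusted p = 0.0564), and in the 4-digit series Ctsd fell by 0.93 (± 0.20 SE, adjusted p = 0.0178). That call was lost without Wnt5a replicate 1 (adjusted p = 0.0565) or replicate 3 (adjusted p = 0.0514).

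Over the whole list, none of 7 tested genes passed edgeR's test over all libraries, 1 of 7 had an unadjusted p below 0.05 (18.4% of all genes), and DESeq2 called 1 (5.01% of all genes). Limma voom called 0, and 1 (Ctsd) with quality weights. Ctsb, encoding cathepsin B, was at 0.35 ± 0.19 (adjusted p = 0.316). Ctss, encoding the cathepsin that trims the invariant chain, was at 0.03 ± 0.35 (adjusted p = 0.974).

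The list of class II transcription holds the RFX and NF-Y subunits, Creb1 and the interferon gamma pathway. None of its 15 tested genes passed over all libraries, with 4 of 15 below an unadjusted p of 0.05, beside 18.4% of all genes. DESeq2 called 1 of 15, beside 5.01% of all genes, and limma voom 0, also with quality weights. Irf8, an interferon regulatory factor of myeloid and dendritic precursors, had 50.4, 45.2, 58.7, 34.7 and 19.4 CPM in Wnt5a libraries and 5.60 to 20.1 CPM, median 18.002 CPM, in WT libraries. Wnt5a replicate 5 alone lay within the WT range. The log2 fold change was 1.45 ± 0.38 (SE, edgeR adjusted p = 0.0904), and Irf8 rose by 1.73 ± 0.38 in the 4-digit series (adjusted p = 0.0194). That call was lost without Wnt5a replicate 1 (adjusted p = 0.0571) or replicate 3 (adjusted p = 0.0769).

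Rfxank, the ankyrin repeat subunit of RFX, had the next smallest p of that list. It averaged 6.58 ± 3.51 CPM in Wnt5a and 18.5 ± 10.002 CPM in WT libraries (log2 fold change -1.47 ± 0.51 SE, edgeR adjusted p = 0.151). Rfx5 averaged 69.2 ± 21.8 CPM in Wnt5a and 63.4 ± 17.6 CPM in WT libraries.

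For comparison, class I presentation genes, which serve CD8+ T cells, had 0 of 18 passing over all libraries and 9 of 18 below an unadjusted p of 0.05, beside 18.4% of all genes. DESeq2 called 2 of 18, beside 5.01% of all genes. Limma voom called 0, and 1 (Calr) with quality weights. Calr, the chaperone calreticulin, had 540, 353, 550, 472 and 265 CPM in Wnt5a libraries, all above the 214 to 260 CPM of WT libraries (median 239 CPM), a separation in that direction shown by 1.26% of genes tested. Its log2 fold change was 0.88 ± 0.19 (SE, edgeR adjusted p = 0.0564), and in the 4-digit series it rose by 1.02 ± 0.17 (adjusted p = 0.00831). Psmb9, a subunit of the immunoproteasome, averaged 100 ± 29.3 CPM in Wnt5a and 168 ± 36.4 CPM in WT libraries (-0.74 ± 0.22 SE, adjusted p = 0.116). Erap1, a peptide-trimming aminopeptidase, passed only in the 4-digit series among these 2 fits, where it fell by 0.92 (adjusted p = 0.0341), with an adjusted p of 0.0279 to 0.112 as each of those libraries was left out. It was not past the threshold without WT replicate 3 or 6 or any of the Wnt5a replicates 1 to 3.

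Costimulation genes had 0 of 4 tested passing, 1 of 4 below an unadjusted p of 0.05 (18.4% of all genes) and 0 called by DESeq2 or by limma voom in either setting. Cd274, the inhibitory ligand PD-L1, averaged 63.3 ± 29.2 CPM in Wnt5a and 96.1 ± 12.5 CPM in WT libraries (-0.60 ± 0.26 SE, edgeR adjusted p = 0.242). Pdcd1lg2, the ligand PD-L2, averaged 16.5 ± 10.4 CPM in Wnt5a and 25.9 ± 4.54 CPM in WT libraries (-0.63 ± 0.42 SE, adjusted p = 0.441).

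The genes most like H2-Aa across the 11 LSK libraries, among 10860 named genes tested, were Hacd4, Aftph, Fstl1, Pou2f1 and Wfdc2, with Pearson r of 0.92, 0.92, 0.91, 0.91 and 0.91 for log2 CPM. Their Spearman rho were 0.92, 0.95, 0.89, 0.91 and 0.67. No class II partner was among them. The points share depth and library, and the values only describe these libraries.

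In the niche the class II genes were close to undetected. The 5 members together had 52 UMIs of 842698 in 18 libraries, and no member had more than 4 UMIs in a library. None passed the filter on low counts, so none was tested in any of the niche comparisons. Cd74 accounted for 31 UMIs in 14 libraries, H2-Ab1 for 9 in 8, H2-Aa for 8 in 5, H2-Eb1 for 2 in 2, and Ciita for 2 in 1.

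Cd74 was the most regularly seen. In EC it had 0, 3 and 1 UMIs in Wnt5a replicates 16 to 18 and 0, 0 and 3 UMIs in WT replicates 13 to 15. In OBC it had 2, 3 and 3 UMIs in Wnt5a replicates 10 to 12 and 0, 2 and 2 UMIs in WT replicates 7 to 9. In MSC it had 2, 1 and 2 UMIs in Wnt5a replicates 4 to 6 and 4, 1 and 2 UMIs in WT replicates 1 to 3.

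These counts overlap between genotypes in each population. Pooled over libraries, on plain totals, Cd74 stood at 163 CPM in OBC Wnt5a (8 of 49177, exact Poisson 95% interval 70.2 to 321) and 60.2 in OBC WT (4 of 66495, 16.4 to 154). In EC it was 21.9 in Wnt5a (4 of 182394, 5.98 to 56.2) and 10.1 in WT (3 of 296459, 2.09 to 29.6). In MSC it was 43.5 in Wnt5a (5 of 114827, 14.1 to 102) and 52.5 in WT (7 of 133346, 21.1 to 108). For Cd74 no genotype difference was detectable at this depth. Pooled over the 5 members, OBC stood at 244 CPM in Wnt5a (12 of 49177, 126 to 426) and 75.2 in WT (5 of 66495, 24.4 to 175). EC stood at 49.3 in Wnt5a (22.6 to 93.7) and 27.0 in WT (11.7 to 53.2). MSC stood at 78.4 in Wnt5a (35.8 to 149) and 67.5 in WT (30.9 to 128). The intervals overlapped in each population and cover counting error only, and the pooled sum was not tested.

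The chain genes gave scattered UMIs. H2-Aa had 1, 2 and 1 UMIs in EC Wnt5a, against 0, 0 and 2 in EC WT, and otherwise 2 UMIs in a single OBC Wnt5a library. H2-Ab1 had 1 UMI in each MSC Wnt5a library, against 1, 1 and 0 in MSC WT, and 0 in all EC Wnt5a libraries, against 0, 1 and 2 in EC WT. A count of 0 in EC Wnt5a has an exact Poisson 95% upper limit of 20.2 CPM for H2-Ab1, and the same holds there for Ciita, whose only 2 UMIs in the niche came from OBC Wnt5a replicate 10.

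One EC WT library, replicate 15, held 7 of the 8 class II UMIs of its group, and it was also the deepest niche library with 117989 UMIs. EC WT replicate 14, the library rich in erythroid transcripts, held 1. Per library, the sum over the 5 members was 1 to 6 UMIs in EC Wnt5a and 0 to 7 in EC WT, 3 to 5 in OBC Wnt5a and 1 or 2 in OBC WT, and 2 to 4 in MSC Wnt5a and 2 to 5 in MSC WT. In OBC the sums of the Wnt5a libraries, of 17874, 17577 and 13726 UMIs in all, lay above those of the WT libraries, of 26088, 29772 and 10635 UMIs, at counts near the floor of 3. Of the 1099 genes tested in the niche, 7.37% had CPM higher in every OBC Wnt5a library than in any OBC WT library.

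**Figure D5:**
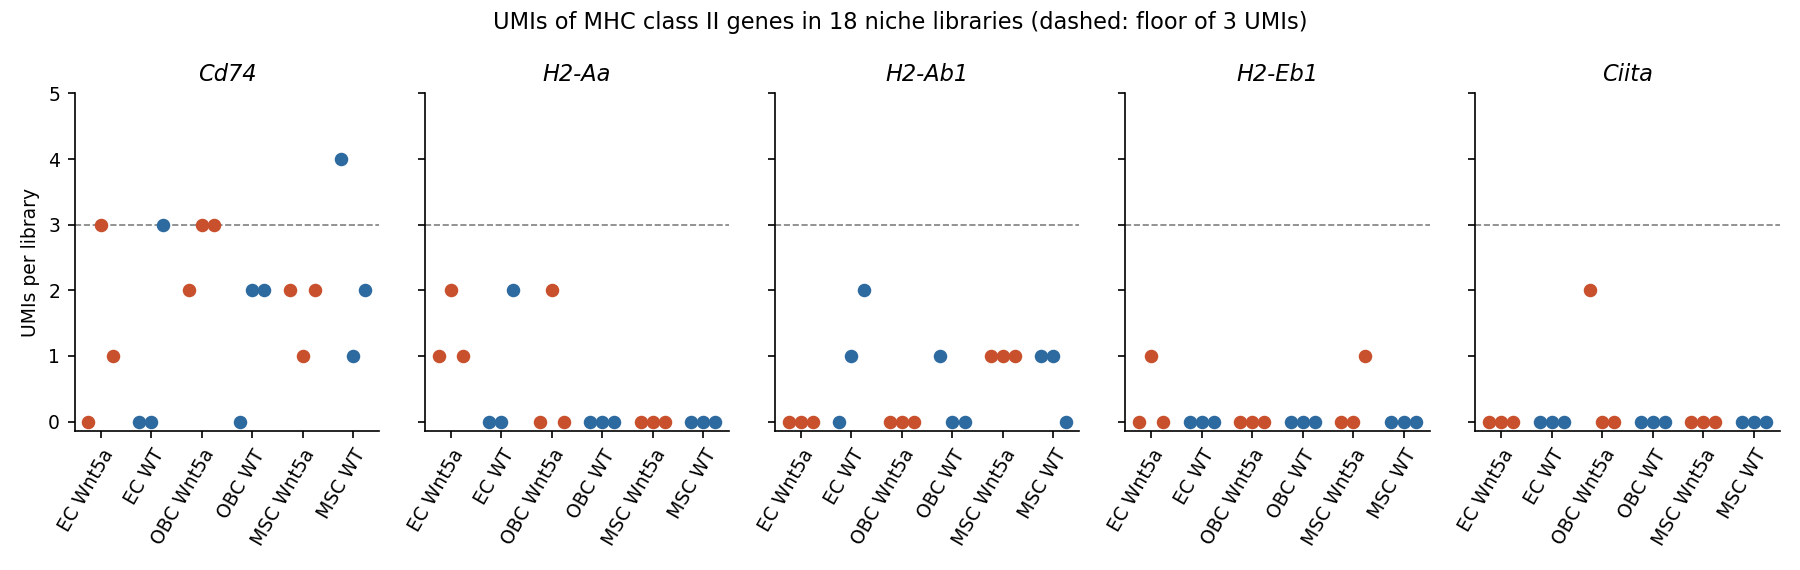
UMIs per library (y axis) of the 5 class II genes in the 18 niche libraries, grouped on the x axis by population with Wnt5a left of WT, 3 libraries each. The dashed line is the floor of 3 UMIs, which only Cd74 exceeds, with 4 UMIs in MSC WT replicate 1.

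Transcripts of blood cells were present in the same niche libraries. Macrophage and monocyte genes summed to 506 to 2025 CPM in OBC Wnt5a and 154 to 626 CPM in OBC WT, to 75.7 to 498 CPM in EC Wnt5a and 95.6 to 251 CPM in EC WT, and to 219 to 385 CPM in MSC Wnt5a and 128 to 276 CPM in MSC WT, led by Lyz2. Between 1 and 5 of the 11 genes in the table were detected per library, and Csf1r was at 0 in all groups but MSC WT. B cell genes were led by Ebf1, which mesenchymal niche cells also express, and summed to 303 to 511 CPM in EC Wnt5a and 304 to 669 CPM in EC WT, to 253 to 873 CPM in OBC Wnt5a and 527 to 769 CPM in OBC WT, and to 511 to 1050.2 CPM in MSC Wnt5a and 423 to 1072 CPM in MSC WT. Dendritic cell genes were led by Tcf4, which other cell types express as well. They summed to 4090 to 4897 CPM in EC Wnt5a and 4319 to 6146 CPM in EC WT, to 2329 to 2784 CPM in OBC Wnt5a and 3615 to 4173 CPM in OBC WT, and to 3625 to 4373 CPM in MSC Wnt5a and 5075 to 6741 CPM in MSC WT. Between 2 and 5 of 9 of them were detected per library, with Itgax and Cd209a at 0 in all 18 libraries and Xcr1, Siglech and Ccr9 at 0 in some of the groups. Plasma cell genes led by Igha reached 2626 to 4743 CPM in MSC Wnt5a and 1730 to 4504 CPM in MSC WT, against at most 1772 CPM in the other groups. Neutrophil genes led by S100a9 reached 10252 to 16204 CPM in OBC Wnt5a and 4895 to 8901 CPM in OBC WT, 2135 to 3797 CPM in EC Wnt5a and 456 to 726 CPM in EC WT, and 3721 to 6030.3 CPM in MSC Wnt5a and 1538 to 2106 CPM in MSC WT, with no overlap between genotypes in any of the 3 populations. The dendritic cell sums were also apart between genotypes in OBC and MSC, but lower in Wnt5a libraries. With 3 libraries per group, 7.37% of single genes tested stood higher in every OBC Wnt5a library than in any OBC WT library. That share covers single genes, OBC and the higher direction only. No matching share was computed for EC, for MSC, for lower values, for list sums or for all 3 populations at once. The part of blood cells in the class II UMIs was not tested.

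Pathway genes deep enough to be tested in the niche were 3 of processing, 2 of transcription and 8 of class I presentation, and none of the partners. By genotype none of these 13 passed in EC, OBC, MSC or the mean of the 3 populations. Of the 1099 genes tested, 0.364%, 1.27%, 0.455% and 3.09% were called in that order. The mean took libraries of different populations as independent. Whether populations came from the same animals is not stated in the labels, so its p-values may be too small. Unadjusted p-values below 0.05 numbered 0 of 13 in EC (8.1% of all genes), 1 in OBC (8.37%), 2 in MSC (18.5%) and 1 in the mean (16.6%). DESeq2 also called 0 of 13, beside 0.728% of all genes in EC, 0.91% in OBC, 4.28% in MSC and 4.28% in the mean. Limma voom called 0 of 13, beside 0.364%, 0.819%, 1.0% and 3.64% in the same order. None passed the interaction of genotype with population either, where 0.546% of genes were called, with 1 of 13 and 8.37% of all genes below an unadjusted 0.05.

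Between populations, where 48.1% of genes differed for EC over OBC, 5 of the 13 did, with a median log2 fold change of 0.29 over all genes. H2-D1, a class I heavy chain, was higher in EC by 1.10 ± 0.29 on the log2 scale (SE, edgeR adjusted p = 0.00155). It averaged 1609 ± 330 CPM in EC Wnt5a and 2202 ± 482 CPM in EC WT, against 638 ± 135 CPM in OBC Wnt5a and 1161 ± 429 CPM in OBC WT (SD, n = 3 each). B2m, the class I light chain, was higher in EC by 0.79 ± 0.32 (adjusted p = 0.0345), and Tap2, a peptide transporter subunit, by 1.65 ± 0.60 (adjusted p = 0.0197).

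Ctsl, a cathepsin that trims the invariant chain in thymic epithelium, was higher in EC over OBC by 1.46 ± 0.43 (edgeR adjusted p = 0.00473), and Canx, the chaperone calnexin, was lower by 1.56 ± 0.36 (adjusted p = 0.000307). In OBC over MSC, where 31.5% of genes were called, Canx was higher by 1.29 ± 0.37 (adjusted p = 0.00537) and Tap2 lower by 1.60 ± 0.62 (adjusted p = 0.0415). In EC over MSC, where 3.64% were called, 0 of the 13 passed and 1 was below an unadjusted p of 0.05 (165 of all 1099 genes). DESeq2 and limma voom called 0 of 13 there, beside 3.46% and 4.37% of all genes. Shares of members near these backgrounds say nothing particular about presentation genes.

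Likeness to Cd74 across the 18 niche libraries rests on 0 to 4 UMIs. The 5 named genes of 982 tested with the highest Pearson r were Supt5, Dhx15, Adam33, Rad21 and Coro1a, at 0.79, 0.79, 0.78, 0.78 and 0.78. With so few UMIs and depths that differ between libraries these values carry no information on shared expression.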

How the data were processed

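Reads of 11 LSK libraries (Smart-seq2) and UMIs of 18 niche libraries (barcoded, pooled cDNA) were deposited as raw counts per Ensembl gene by the authors. Per the submitters' processing notes STAR and featureCounts were used on mm10 (GRCm38), with no versions given. Annotation release, UMI collapsing and use of strand are not stated there. No column was left out, no libraries were identical, and 28 spike-in entries of the niche table stayed out of totals.

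Each table was fitted on its own in R 4.3.3 with edgeR 4.0.16 (TMM, the filterByExpr filter at 10 counts per library and 15 in total, robust quasi-likelihood test), the niche as 1 fit of 6 groups. Benjamini-Hochberg adjustment ran over all genes tested, with a threshold of 0.05, and every adjusted p is edgeR's unless another tool is named. Folds are Wnt5a over WT or the first-named population over the second, and SE is the log2 fold change over the square root of F. DESeq2 1.42.0, limma 3.58.1 (voom, with and without sample quality weights), other scaling, no filter, each library left out, and subsets by label number were alternatives. Lengths and coordinates are from GENCODE for GRCm38. Likeness used log2 CPM with a prior count of 2. The test was checked on simulated counts with planted changes larger than those of the class II members here. That check does not cover changes of their size, an outlying library or an effect of label order.

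Members and lists were chosen with earlier results of these data known. Named were the 5 members, up to 4 genes per pathway list past the test or otherwise up to 2 with the smallest p, the 5 genes most like the member with the most counts, and the top gene of a marker list. H2-DMa, H2-DMb1, H2-Ob, H2-Ea-ps, H2-Eb2, Ctss, Rfx5 and Erap1 were named beyond this rule, after their values were seen. Libraries of 1 group differed by more than sampling noise, with a chi-square per degree of freedom of 1.81 or more. The level of Wnt5a in the niche libraries is not analysed here. Reads of amplified cDNA are not independent molecules, so intervals and floors cover counting error only.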

Additional observations from a re-analysis of the deposited data

Results flagged for a closer look

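Of 32 groups of LSK values screened (members, named pathway genes and the ratio of Cd74 to H2-Aa reads), 1 held a library far from the others of its group. Cd74 in Wnt5a replicate 5 stood at 305.9 CPM, against 58.3 to 120 CPM in the other 4 Wnt5a libraries. Its gap to the nearest of them was 0.749 of the group's whole range. Chance gives such a gap in about 1 of 20 groups. The same library had 8.28% of its reads on immunoglobulin genes and a 3-digit label number, and the part of either in its Cd74 value was not tested.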

How the results depend on the processing

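The number of class II members past the test in LSK cells was 0 over all libraries and 1 (Cd74) with 4-digit label numbers only. It ran from 0 to 1 as each library was left out, over all libraries and within the 4-digit series alike, and Cd74 was the member concerned. It was 0 with RLE scaling, no filter, DESeq2, limma voom with or without sample quality weights, the 5 lowest label numbers, and without immunoglobulin, haemoglobin and mitochondrial genes. Over the 28 alternatives the log2 fold change of Cd74 ran from -1.56 to -0.44 (adjusted p 0.0155 to 0.567), that of H2-Aa from -1.05 to -0.38 (0.0565 to 0.443) and that of H2-Eb1 from 0.02 to 0.71 (0.128 to 0.983). H2-Ab1 ran from -0.28 to 0.19 and was above 0 at 0.19 in the 5 lowest label numbers, at 0.016 in limma voom with sample quality weights, and at 0.040, 0.076, 0.0072, 0.037 and 0.034 in the 4-digit series without WT replicate 4, 5 or 6 or Wnt5a replicate 1 or 2. The cause was not tested. Genes called over all genes numbered 3 of 13098 in LSK by edgeR, 3 with RLE scaling, 343 of 30413 with no filter, 656 by DESeq2, 0 by limma voom (90 with sample quality weights), 32 without immunoglobulin, haemoglobin and mitochondrial genes, 882 with 4-digit labels (109 to 1292 as each of those libraries was left out), 26 in the 5 lowest labels, 1114 without Wnt5a replicate 5 and 0 to 16 without any other library. In the niche, genes called over all genes numbered 4 in EC (2 to 22 over the alternatives), 14 in OBC (3 to 17), 5 in MSC (0 to 71), 34 in the mean (14 to 71), 6 in the interaction (2 to 15), 529 in EC over OBC (500 to 1062), 40 in EC over MSC (27 to 80) and 346 in OBC over MSC (338 to 428). RLE scaling put the median log2 fold change of all genes at 0.42 in EC over OBC, against 0.29 with TMM, and at -0.24 in MSC, against -0.03. Of the pathway genes in LSK, H2-DMb2, H2-Oa, Ctsd, Irf8 and Calr kept their direction in all 28 alternatives. They passed with no filter and by DESeq2, but not with RLE scaling, by limma voom or in the 5 lowest label numbers, and with quality weights Ctsd and Calr alone of the 5 passed. Leaving out 1 of the 11 libraries, each passed in 1 of 11 cases, that without Wnt5a replicate 5. The highest adjusted p was 0.383 for H2-DMb2, 0.724 for H2-Oa, 0.290 for Ctsd, 0.313 for Irf8 and 0.313 for Calr. Within the 4-digit series, leaving 1 library out, Calr passed in 9 of 9 cases, H2-DMb2, Ctsd and Irf8 in 7, and H2-Oa in 0. In EC over OBC, Canx no longer passed with no filter (-0.91, adjusted p = 0.153) or without OBC Wnt5a replicate 10, and Tap2 and B2m each lost the call in some settings (2 and 5 of 24). Tap2 in OBC over MSC lost it in 8 of 24 and Canx in 2 of 24.

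With no filter no niche member passed in any comparison. The smallest p was that of Cd74 in EC over OBC (-2.25 ± 0.81 SE, edgeR adjusted p = 0.0689). No paired analysis was possible in LSK because its replicate numbers follow accession order. In the niche no number is shared, but numbers lie 6 apart between populations, and a replicate block of such sets was tried after the data had been seen, though the labels do not call them sets. It put 547 genes past the test in EC over OBC, 56 in EC over MSC, 362 in OBC over MSC and 6 in the interaction. In it 0 members were tested, and the 7 calls of pathway genes between populations were kept. The block could not be used for the genotype difference in the mean of the populations, because each set lies within a genotype. Within such sets 7 of 18 pairs of libraries had deviations from their group means correlated above 0.1 (r from -0.062 to 0.17, median 0.068). Among the other pairs of populations within a genotype, 2 of 36 did (r from -0.30 to 0.16, median -0.036). Whether the libraries of a set share a source was not tested. Depth limits the niche, where 3 UMIs equal 25.4 to 282 CPM.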
